A study of Mus musculus with 47 samples.

Results

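The genes of the proteasome subunits were followed in 4 tissues of mice fed a methionine-restricted (MR) or a control (CON) diet. The members were all genes whose symbol is Psma, Psmb, Psmc or Psmd followed by a number, with a total of at least 20 tags in the count table of a tissue. There were 39 such genes among the 26608 genes of each table: 39 in liver and 38 each in inguinal white adipose tissue (IWAT), brown adipose tissue (BAT) and gastrocnemius muscle. Psmb3 was below the minimum in IWAT, with 8 tags in all, and Psma8 in BAT and gastrocnemius, with 6 and 7 tags.

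The mice were male, of the inbred strain C57BL/6J with no transgene named, 5 weeks old when the diets began, kept on them for 11 weeks at a room temperature of 23 C, and without food for the last 5 h. The diets had 6 mice each, and the 4 tissues came from the same mice, which gave 6 MR and 6 CON libraries per tissue, except 5 MR libraries in gastrocnemius. In all there were 47 libraries in 8 groups, named below by diet and animal number. The assay counted a short tag near the 3′ end of each transcript (SOLiD SAGE), so a level does not scale with transcript length, and a library held between 4887004 and 13117537 counted tags.

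The proteasome is the main protease for proteins that cells mark with ubiquitin. Its 20S core is a barrel of alpha rings, which gate the entry, and beta rings, which hold the proteolytic sites of Psmb5, Psmb6 and Psmb7; under interferon, and in immune cells, Psmb8, Psmb9 and Psmb10 are built in at these sites to form the immunoproteasome. The 19S cap unfolds substrates with the Psmc ATPases and binds ubiquitin, deubiquitinates and scaffolds with the Psmd subunits; in mice Psma8 is known from testis and Psmb11 from the thymus.

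The upstream sequences of the catalytic genes on which most results below turn are given here from the RefSeq promoter table (GRCm38), each as the 250 bases before the annotated start, read 5′ to 3′ on the gene's strand. Psmb5 lay on the minus strand at chr14:54617996-54618245, Psmb8 on the plus strand at chr17:34197945-34198194 and Psmb9 on the minus strand at chr17:34187331-34187580. Capitals mark matches to the 4 searched motifs, which are spelled out in the next paragraph.
Psmb9: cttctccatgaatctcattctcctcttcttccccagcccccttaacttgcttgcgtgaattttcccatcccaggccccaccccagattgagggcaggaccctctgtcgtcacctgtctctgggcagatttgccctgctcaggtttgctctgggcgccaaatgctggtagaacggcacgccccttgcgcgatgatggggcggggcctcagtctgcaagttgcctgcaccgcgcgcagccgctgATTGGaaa
Psmb8: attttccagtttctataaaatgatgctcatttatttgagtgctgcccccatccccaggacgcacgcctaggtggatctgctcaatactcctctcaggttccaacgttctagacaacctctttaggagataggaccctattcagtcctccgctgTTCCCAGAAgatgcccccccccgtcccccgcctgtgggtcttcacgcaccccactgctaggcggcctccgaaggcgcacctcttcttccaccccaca
Psmb5: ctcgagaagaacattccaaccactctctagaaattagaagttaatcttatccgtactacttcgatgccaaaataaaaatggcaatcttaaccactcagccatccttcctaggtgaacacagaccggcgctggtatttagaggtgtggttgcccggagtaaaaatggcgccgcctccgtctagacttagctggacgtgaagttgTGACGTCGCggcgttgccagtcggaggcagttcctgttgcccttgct

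A promoter window of 300 bases, of which 50 lie after the start, was found for 32 of the 39 members, and both strands were searched. TGACNNNGC, the core of the antioxidant response element, was in the windows of 5 of the 32 members, or 15.6%, against 13.99% of all 27025 genes with a window. These were Psmb5, Psmb6, Psmc6, Psmd9 and Psmd12, and in Psmb5 the match began 47 bases before the start. CCAAT, the box read by NF-Y, was in 13 members, or 40.6%, against 41.1% of all genes, and Psmb9 held it on the opposite strand, 8 bases before the start. The interferon-stimulated response element, searched as GAAA on either side of 2 free bases, was in Psmb3, Psmd4 and Psmd9, which is 9.38% of the members against 3.99% of all genes. TTCNNNGAA, a site read by STAT factors, was in Psmb8 and Psmd2, which is 6.25% of the members against 9.55% of all genes. No searched motif overlapped another in the windows printed, and a match is a description of these letters only. The window of Psmb9 shares 275 bases with that of the peptide transporter gene Tap1, its divergent neighbour on chromosome 17, where Psmb8 also lies.

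Of the 47 libraries, 4 stood apart from the other libraries of their tissue, with a median Spearman correlation under 0.8: MR3116, CON3106 and CON3115 in IWAT and MR3101 in gastrocnemius. The 43 others had between 0.857 and 0.972. In the 4 libraries many proteasome genes were displaced, in a somewhat higher share than all genes, a difference that was not tested: 26 of 36 members in MR3116, 23 of 36 in CON3106 and 18 of 36 in CON3115 (72.2, 63.9 and 50%) lay more than 1 log2 unit from the median of IWAT, against 61.3, 59.8 and 42.8% of all genes. In MR3101 27 of 36 (75.0%) did, against 73.3% of all genes in gastrocnemius. In the other libraries at most 6 members did. Of the 35 members tested in both tissues, 15 lay more than 1 unit to the same side in all 4 libraries. Psma2, Psma5, Psmb7 and Psmd7 were above the tissue median, and 11 genes were below it, among them Psma1, Psmb2, Psmb6, Psmc1, Psmd2, Psmd4 and Psmd13. These libraries were of both diets and are kept unless stated. Summed markers of hepatocytes, skeletal muscle, brown adipocytes and adipocytes were highest, by group median, in liver, gastrocnemius, BAT and IWAT. BAT libraries also held between 96.0 and 17346 CPM of muscle markers. Hepatocyte markers ran from 205 to 11072 CPM in IWAT, highest in CON3103. In BAT they were 3458 CPM in CON3106 and at most 122 CPM in the others. Muscle markers were 18776 CPM in MR3101 of gastrocnemius, where the other libraries had at least 90764 CPM.

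**Figure D1:**
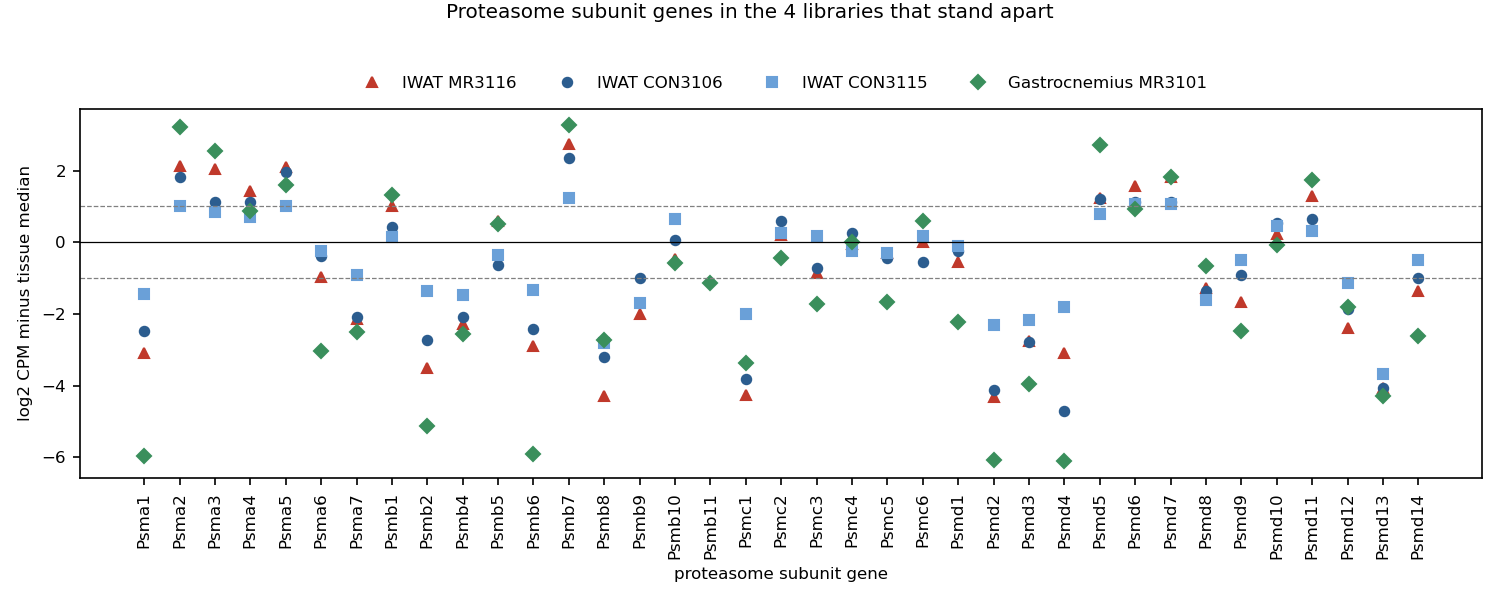
Log2 CPM (tags scaled to an equal library size) of each proteasome gene minus its median over the libraries of the tissue (vertical axis) for the 4 libraries that stood apart, 1 marker shape per library, with genes along the horizontal axis and dashed lines at 1 and -1. In all 4 libraries Psmb7 lies above 1, and Psmd13 and Psmd2 lie below -1.

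The first comparison asked how the proteasome genes differ between tissues on the control diet. Each tissue was set against the mean of the other 3 in a joint fit of all libraries (edgeR, Benjamini-Hochberg adjusted over 13541 genes). Of these genes 38 were members in any tissue, and Psmb3 was not tested. The non-ATPase class is all 14 Psmd genes, with the base assembly chaperones Psmd5, Psmd9 and Psmd10 among them. In gastrocnemius 4 of 6 ATPase and 6 of 14 non-ATPase genes were above the other tissues. These 10 of 38 members stand beside 24.3% of all genes. All 3 immunoproteasome genes were below the other tissues there, among 5 lower members beside 29.4% of all genes. In IWAT 13 of 38 members were lower, beside 16.5% of all genes. But under scaling by library totals alone 0 were lower and 6 higher, beside 6.12 and 45.7% of all genes. In liver 7 were higher, a share under the 26.2% of all genes. In BAT 2 were higher and 2 lower, beside 18.1 and 13.5% of all genes. The 4 contrasts share their control libraries and are not independent of each other. In tissue RNA, fewer cells of a type and less RNA per cell cannot be told apart.

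Members took 0.541 to 0.629% of all tags in gastrocnemius libraries, 0.445 to 0.539% in IWAT, 0.430 to 0.590% in BAT and 0.395 to 0.548% in liver. A share of all tags also depends on how much of a library other genes fill. Levels between tissues are therefore given below as CPM on a joint scale (TMM factors of all 47 libraries). On this scale the summed level of all members was 6501 ± 1003 CPM in gastrocnemius, 5622 ± 260 in liver, 4924 ± 320 in BAT and 3843 ± 559 in IWAT (mean ± SD, n = 6 CON libraries each). Gastrocnemius, with 5613 to 8210 CPM, overlapped liver with 5222 to 5881 CPM, and IWAT, with 3060 to 4552 CPM, overlapped BAT only narrowly, at 4521 to 5265 CPM. With scaling by library totals alone the median difference of all genes was 0.62 in IWAT and -0.58 in liver on the log2 scale, against 0.06 and -0.05 with TMM, a movement of 0.56 and -0.53.

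**Figure D2:**
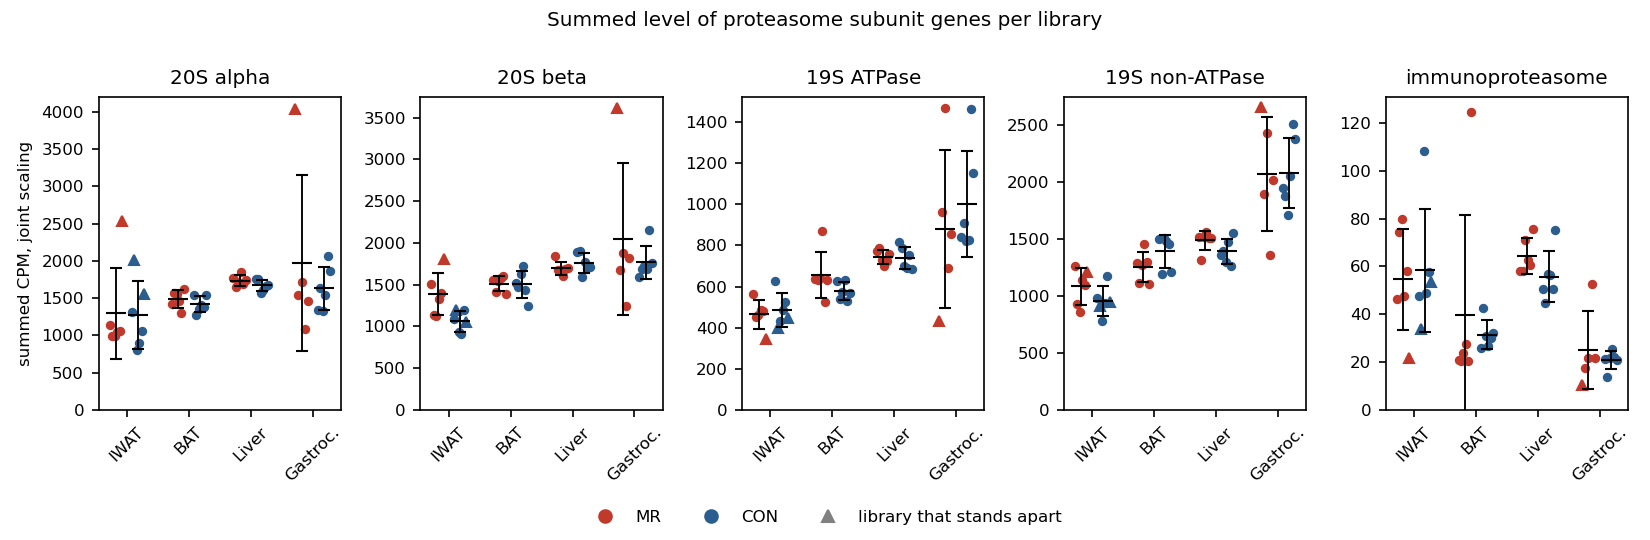
Summed level per library (CPM, joint scaling, linear axes from 0) of the alpha, beta, ATPase, non-ATPase and immunoproteasome genes, MR left of CON in each tissue. Horizontal bars and whiskers are the mean and SD, whiskers below 0 are cut off, and triangles are the 4 libraries that stand apart. Among CON groups gastrocnemius holds the highest mean ATPase, non-ATPase and beta sums and the lowest mean immunoproteasome sum. Its mean beta sum is close to that of liver, where the mean alpha sum is highest.

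In gastrocnemius the higher ATPases were Psmc2, Psmc3, Psmc5 and Psmc6, and of the 14 non-ATPase genes 2 were lower, whereas none of the 7 alpha and 6 constitutive beta genes passed the test. Without the 4 libraries that stood apart, 20 members were higher and 6 lower (against 29.9 and 36.8% of all genes), with 5 ATPases, 9 non-ATPase, 3 alpha and 3 beta genes among the higher ones. Whether cap genes differ more than core genes was not tested.

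Psmd6, a scaffold subunit of the lid, had the highest difference in muscle. Its lowest, median and highest CON libraries had 298, 372 and 689 CPM in gastrocnemius, against 99.7, 114 and 276 in IWAT, 92.2, 148 and 188 in BAT, and 124, 139 and 205 in liver. All CON libraries of muscle were above all CON libraries of the other tissues, with a difference of 1.49 ± 0.24 (log2 ± SE, adjusted p = 1.62e-06). The ATPase Psmc5 had 143, 229 and 467 CPM in gastrocnemius, and its highest CON library was 160 in IWAT, 175 in BAT and 142 in liver. The difference was 1.15 ± 0.21 (adjusted p = 7.64e-06), and the lowest CON library of muscle overlapped those of IWAT and BAT. Psmc3, another ATPase, had 151, 225 and 292 CPM in gastrocnemius. Its highest CON library was 107 CPM in IWAT, 119 in BAT and 140 in liver. Its CON libraries of muscle did not overlap those of the other tissues (1.12 ± 0.18, adjusted p = 1.12e-06). Against this direction, Psmd5, a chaperone of base assembly, was lower by -1.02 ± 0.35 (adjusted p = 0.0136), and so was Psmd10 (gankyrin), a further base chaperone, by -0.64 ± 0.16 (adjusted p = 0.000763).

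Psmb9 and Psmb8 were the members farthest below the other tissues in muscle, and Psmb10 was lower too. Psmb9 had 0.108, 0.541 and 1.57 CPM (lowest, median and highest CON library) in gastrocnemius, against 0.606, 2.81 and 6.36 in IWAT, 0.832, 1.53 and 2.51 in BAT, and 4.15, 6.21 and 7.08 in liver. The CON libraries of muscle overlapped those of both fat tissues and not those of liver, and the difference was -2.12 ± 0.58 (adjusted p = 0.00185). Psmb8 had 2.58, 4.70 and 5.50 CPM in gastrocnemius, against 1.61 to 56.0 in IWAT, 5.82 to 18.8 in BAT and 18.6 to 22.6 in liver, a difference of -1.85 ± 0.64 (adjusted p = 0.0127). Psmb10 had 8.36, 16.6 and 20.2 CPM in gastrocnemius, against medians of 33.0 in IWAT, 19.7 in BAT and 26.4 in liver (-0.79 ± 0.20, adjusted p = 0.00104). Of 15 interferon and antigen presentation genes, 13 were also lower in muscle (29.4% of all genes), 8 were higher in liver (26.2%), 11 were higher in IWAT (27.2%) and 6 were lower in BAT (13.5%). Among the CON libraries behind these counts, CON3107 of IWAT held 1960 CPM and CON3106 of BAT over 100 CPM of summed lymphocyte markers, whose part in the counts was not tested.

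In IWAT 1 member was higher (27.2% of all genes) and 13 were lower (16.5% of all genes), with a median over members of -0.59, against 0.06 for all genes. The lower ones were 1 alpha, 2 beta, 4 ATPase and 6 non-ATPase genes. Scaled by library totals alone, 6 members were higher and none lower, beside 45.7 and 6.12% of all genes. The member median was then 0.00 against 0.62 for all genes, so the members stayed below the typical gene while their own direction was lost. Without the libraries that stood apart, 20 were lower and 3 higher, the 3 being Psmb8, Psmb9 and Psmb10, against 19.5 and 28.8% of all genes.

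The lid scaffold gene Psmd3 was lowest in IWAT relative to the other tissues, with 14.2, 83.2 and 129 CPM (lowest, median and highest CON library) and a difference of -1.13 ± 0.36 (adjusted p = 0.00957). Its median was 130 CPM in BAT, 177 in liver and 165 in gastrocnemius. Psmd12 (-1.07 ± 0.27, adjusted p = 0.00114) and Psmd8 (-1.04 ± 0.23, adjusted p = 0.000323), both lid subunits, followed. Psmb5, the chymotrypsin-like site, had 233, 261 and 412 CPM in IWAT against medians of 628 in BAT, 478 in liver and 509 in gastrocnemius, and was lower by -0.93 ± 0.18 (adjusted p = 5.11e-05). The CON libraries of IWAT overlapped those of BAT, whose lowest had 370 CPM, and not those of liver and gastrocnemius. In contrast Psmb10 was higher in IWAT (0.79 ± 0.19, adjusted p = 0.000637), while Psmb8 (0.99 ± 0.53, adjusted p = 0.131) and Psmb9 (0.70 ± 0.47, adjusted p = 0.238) did not pass. Both passed without the libraries that stood apart, at 1.52 (adjusted p = 0.00450) and 1.12 (adjusted p = 0.0401).

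Lymphocyte markers were high in some IWAT libraries. Of 12 markers 11 were in the table, and 1 had no tag in any library. Their summed level ran from 9.93 to 994 CPM in MR and from 11.0 to 1960 CPM in CON libraries of IWAT, and CON3107, the highest, also had the highest Psmb8 (76.0 CPM on the scale of IWAT) and Psmb9 (8.62 CPM). Psmb10 was highest in CON3115 (62.5 CPM), a library that stood apart with 11.6 CPM of markers, and nearly as high in CON3107 (62.3 CPM). It had 46.8, 39.7 and 38.7 CPM in MR3102, MR3104 and MR3113, with 994, 979 and 806 CPM of markers. In CON3103, CON3112 and MR3101, with 12.7, 11.0 and 9.93 CPM of markers, it had 28.9, 36.3 and 37.0 CPM. CON3114 and MR3109, with 37.8 and 49.4 CPM of markers, had 43.5 and 39.4 CPM. Without the libraries over 100 CPM of these markers, Psmb10 still passed in IWAT (0.73, adjusted p = 0.00349), while Psmb8 was at 0.40 (adjusted p = 0.555) and Psmb9 at 0.39 (adjusted p = 0.542). How far these cells account for the levels was not tested.

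In liver 7 members were higher (26.2% of all genes) and 1 was lower (27.7% of all genes). Under library totals alone 3 were higher and 11 lower, beside 16.8 and 42.3% of all genes. The member median was then -0.30 against -0.58 for all genes. Without the libraries that stood apart 20 were higher and 4 lower, against 32.7 and 33.1% of all genes. Psma8 had the highest difference, 3.06 ± 0.55 (adjusted p = 6.77e-06), at very low levels. Over all libraries it had 142 tags in liver, against 22 in IWAT, 6 in BAT and 7 in gastrocnemius. Among the fits of single tissues, that of liver alone kept it past the count filter. Psma8 therefore entered the joint test mainly through the tissue where it was high, so its call is not independent of the filter. It had 0.115, 0.924 and 2.51 CPM (lowest, median and highest CON library) in liver, with no CON library above 0.388 CPM in the other tissues. Depending on the library, 0 tags are compatible with 0.229 to 0.614 CPM (counting error only), and the lowest liver library lay under this limit. Psmd9, a chaperone of base assembly, had 49.0, 56.8 and 72.7 CPM in liver and no CON library above 33.3 CPM elsewhere. The difference was 1.70 ± 0.26 (adjusted p = 3.61e-07). Among MR libraries, MR3116 of BAT had 88.5 CPM of Psmd9 on the scale of BAT. Psmb9 was higher in liver by 1.99 ± 0.45 (adjusted p = 0.000205), and Psmb8 at 1.12 ± 0.53 did not pass (adjusted p = 0.0710). These 3 called genes kept their direction and their call under library totals alone (2.57, 1.17 and 1.44 for Psma8, Psmd9 and Psmb9). The ATPase Psmc6 was lower in liver (-0.56 ± 0.20, adjusted p = 0.0179). Psmb11 (-0.62), the lowest member in liver, and Psmd6 (-0.49) did not pass; under library totals alone Psmb11 passed (-1.14, adjusted p = 0.00870).

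In BAT 2 members were higher (18.1% of all genes) and 2 were lower (13.5% of all genes). Under library totals alone 4 were higher and 0 lower, beside 20.8 and 9.65% of all genes. The 4 were Psmb11 and Psmb5 again, with Psmd8 and Psmd10. Psmb11 was higher by 1.08 ± 0.30 (adjusted p = 0.00484), with 1.29, 2.82 and 3.85 CPM (lowest, median and highest CON library) in BAT and medians of 1.15 in IWAT, 1.01 in liver and 1.60 in gastrocnemius, so that the tissues overlapped at a low level. Psmb5 was higher by 0.57 ± 0.16 (adjusted p = 0.00615), and lies close to Psmb11 on chromosome 14. Psmc2 (-0.56 ± 0.20, adjusted p = 0.0256) and Psmc3 (-0.51 ± 0.20, adjusted p = 0.0405) were lower, and neither passed with the animal as a replicate block. Of the other extremes, Psmd4 (0.62), Psma1 (0.60), Psma8 (-1.64), Psmd9 (-0.74) and Psma5 (-0.59) did not pass. Psma8 had 6 tags in all in BAT, below the minimum for a member of that tissue. Without the libraries that stood apart 8 members were higher and 6 lower, against 24.8 and 21.0% of all genes.

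**Figure D3:**
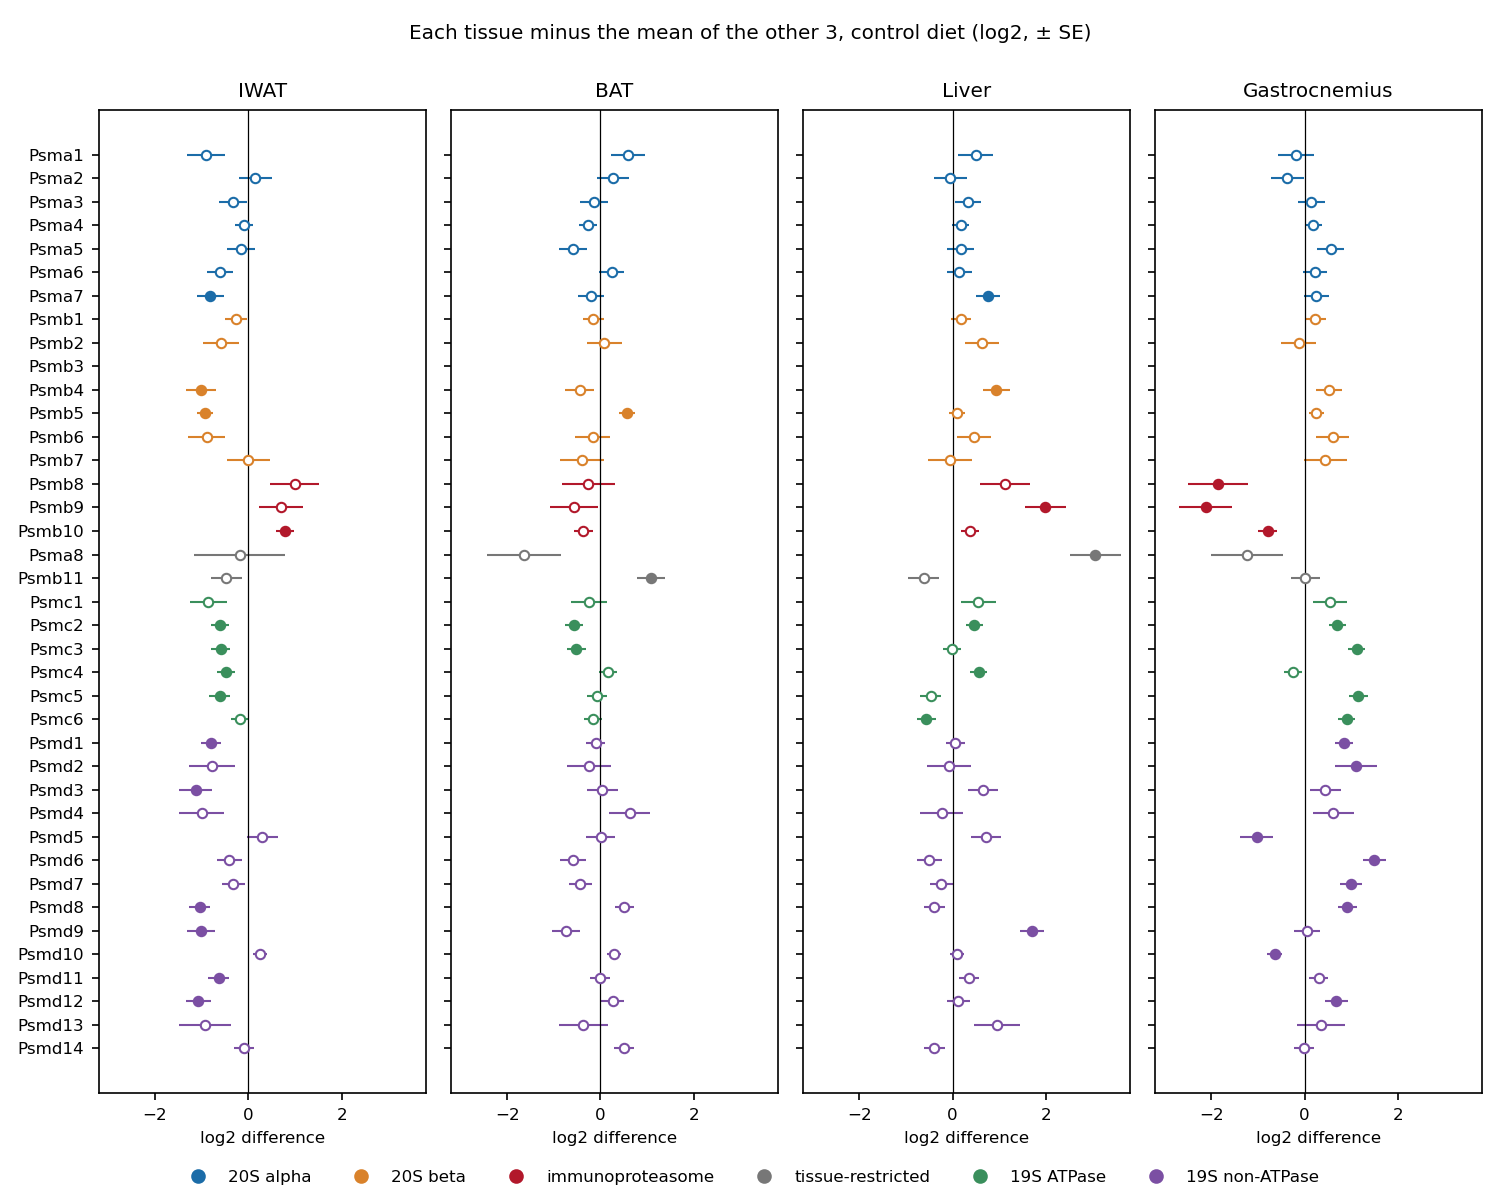
Difference between each tissue and the mean of the other 3 among CON libraries (log2, horizontal axes) for every tested member, coloured by class, with SE as whiskers and filled points for adjusted p under 0.05. Immunoproteasome genes lie to the right in IWAT and liver and to the left in gastrocnemius, where Psmd6, Psmc5 and Psmc3 lie farthest right.

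The genes around the proteasome also differed between tissues. Psme4, a cap that opens the core without ATP, was higher in gastrocnemius (2.09 ± 0.26, adjusted p = 6.34e-09) and lower in IWAT (-1.87 ± 0.32, adjusted p = 8.76e-06). Psme2, a subunit of the interferon-induced cap PA28, was higher in liver (0.98 ± 0.38, adjusted p = 0.0285) and lower in gastrocnemius (-1.59 ± 0.45, adjusted p = 0.00269). Nfe2l1, a transcription factor that raises proteasome genes when proteasome activity is short, was higher in gastrocnemius (1.53 ± 0.23, adjusted p = 4.60e-07) and lower in liver (-2.09 ± 0.29, adjusted p = 3.39e-08).

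The second comparison was the diet, MR against CON, within each tissue. Among all tested members 1, Psmb9 in liver, fell under MR, and no other member passed in any tissue. Values are CPM scaled within the tissue, and tests are edgeR quasi-likelihood tests adjusted over all genes of the tissue. Tested were 36 of 38 members in IWAT, 37 of 38 in BAT, 37 of 39 in liver and 36 of 38 in gastrocnemius. The others had too few tags: Psma8 and Psmb11 in IWAT, Psmb3 in BAT, Psmb3 and Psmb11 in liver, and Psmb3 and Psmb9 in gastrocnemius. Psmb3 had 8 to 41 tags per tissue, where each other constitutive beta gene had at least 4052. Whether so few tags reflect a low level of Psmb3 or the tag that is counted was not tested.

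In IWAT 0 of 36 members passed, against 0.0270% of all genes (0.00901% higher and 0.0180% lower), and 1 had an unadjusted p under 0.05 (8.78% of all genes). DESeq2 called 1 member, Psmb5, and limma none. In BAT 0 of 37 passed with edgeR, DESeq2 or limma, against 1.11% of all genes in edgeR (0.575% higher and 0.537% lower), and 3 had an unadjusted p under 0.05 (13.6% of all genes). In gastrocnemius 0 of 36 passed with any of these tools, against 0.00% of all genes in edgeR, and 2 had an unadjusted p under 0.05 (6.32% of all genes). In liver 1 of 37 was lower, against 1.21% of all genes, none was higher, against 1.05% (2.26% in either direction), and 6 had an unadjusted p under 0.05 (14.5% of all genes).

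The precision differed by tissue. The median log2 fold change of the tested members was 0.02 in IWAT, -0.03 in BAT, 0.05 in liver and -0.12 in gastrocnemius, beside -0.02, 0.00, 0.01 and -0.04 for all tested genes. The median SE of a member was 0.43 in IWAT, 0.20 in BAT, 0.12 in liver and 0.43 in gastrocnemius. The 95% interval of the fold change lay within 1 log2 unit of 0 for 35 of 37 members in liver and 32 of 37 in BAT, but for 16 of 36 in IWAT and 9 of 36 in gastrocnemius. In IWAT and gastrocnemius the absence of a call therefore leaves room for 2-fold differences of most members.

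By class, no group of subunits had a median fold change of 1 sign in every tissue. All 6 tested beta genes were positive in IWAT, with a median of 0.17, while 1 of 6 was positive in liver, with a median of -0.03. The 14 non-ATPase genes had medians of 0.10 in IWAT, -0.17 in BAT, 0.09 in liver and -0.19 in gastrocnemius. Summed over all members, the joint-scale level was 5734 ± 155 CPM in MR and 5622 ± 260 in CON liver, 4957 ± 243 and 4924 ± 320 in MR and CON BAT, and 4289 ± 880 and 3843 ± 559 in MR and CON IWAT (mean ± SD, n = 6 each). In gastrocnemius it was 6997 ± 2364 in MR (n = 5) and 6501 ± 1003 in CON (n = 6). In each tissue the difference of the means was smaller than the larger of the SDs, and the ranges overlapped.

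**Figure D4:**
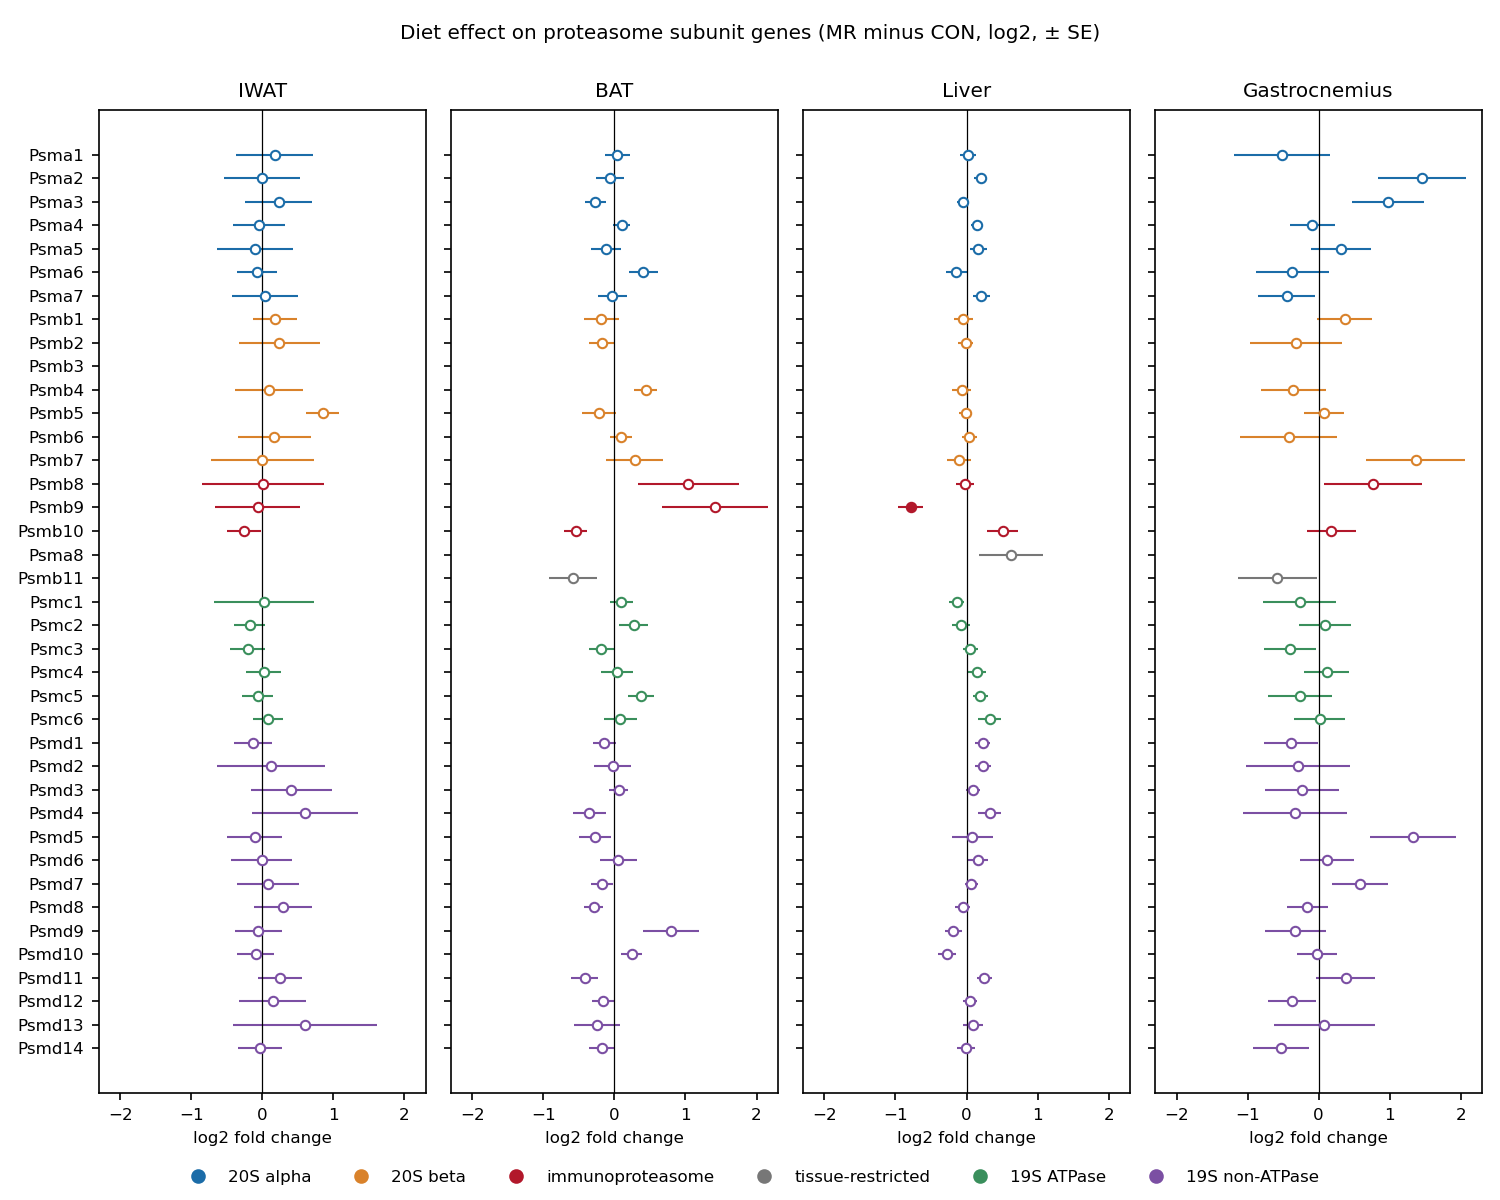
Diet effect on each tested member in the 4 tissues (MR minus CON, log2 fold change, horizontal axes), coloured by class, with SE as whiskers and filled points for adjusted p under 0.05. The filled point is Psmb9 in liver, and the whiskers are shortest in liver and longest in IWAT and gastrocnemius.

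Psmb9, at chr17:34182030-34187330 (GRCm38), encodes the immunoproteasome subunit beta1i, which takes the place of Psmb6. In liver its lowest, median and highest libraries had 2.15, 2.78 and 3.56 CPM under MR, against 3.39, 5.10 and 5.78 CPM under CON. All 6 MR libraries were below the CON mean, and the groups overlapped through 1 CON library, CON3112 at 3.39 CPM, which lay below MR3102 at 3.56 CPM. Psmb9 fell by 0.78 on the log2 scale (-0.78 ± 0.18, adjusted p = 0.0316). The counts were low, 23 to 35 tags per MR library and 33 to 56 per CON library. The call was lost when any 1 of 7 libraries was left out (CON3103, CON3106, CON3114, MR3104, MR3109, MR3113 or MR3116), with adjusted p between 0.0618 and 0.0801, and in the joint fit of all tissues, where adjusted p was 1; DESeq2 kept it at 0.00756. The fold change stayed between -0.87 and -0.71 throughout.

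The other immunoproteasome genes did not pass in liver. Psmb10, at chr8:105935728-105938392, which replaces Psmb7, had 28.0, 34.3 and 38.5 CPM under MR (lowest, median and highest library), against 12.8, 21.8 and 39.7 CPM under CON. All 6 MR libraries were above the CON mean but within the CON range, and the difference of 0.51 ± 0.22 did not pass (adjusted p = 0.294). Without CON3115, the highest CON library, it was 0.72 and passed (adjusted p = 0.0492). Psmb8, which replaces Psmb5, had 13.3, 16.8 and 22.8 CPM under MR and 15.2, 17.6 and 18.6 CPM under CON, and its fold change was -0.03 ± 0.13. The 3 genes they replace did not pass either: Psmb5 at -0.01 ± 0.10, Psmb6 at 0.04 ± 0.11 and Psmb7 at -0.11 ± 0.17, with adjusted p of 0.968, 0.905 and 0.816. Lymphocyte markers summed to 9.88 to 17.4 CPM in MR and 8.64 to 18.1 CPM in CON livers, so the ranges overlapped. Blood markers were also lower under MR. They summed to 47.2, 69.1 and 97.7 CPM under MR (lowest, median and highest liver), against 79.4, 120 and 131 CPM under CON. Of the MR livers 5 of 6 lay below all CON livers. Among CON livers CON3112, with the most markers, had the lowest Psmb9, and CON3106, with the least, had the highest (5.78 CPM). Among MR livers Psmb9 was 2.66 CPM in MR3116, with the most markers, and 2.40 CPM in MR3113, with the least. It was highest in MR3102, with 56.2 CPM of markers. Of the 7 blood markers 5 were in the table, Hbb-b1 and Hbb-b2 had no tag, and most of the sum was Alas2, the erythroid enzyme of haem synthesis, with a median of 65.3 CPM under MR and 111 CPM under CON. Their part in the fall of Psmb9 was not tested. None of the 15 interferon and antigen presentation genes passed for diet in liver, and their median was 0.08. Of these, Tap1, which shares the upstream region with Psmb9, was at 0.29 ± 0.34 (adjusted p = 0.745).

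The ratio of each immunoproteasome gene to the gene it replaces was tested in each tissue, 12 exact two-sided permutation tests in all, where 6 against 6 libraries can reach no p below 0.00216. None passed after Benjamini-Hochberg adjustment. The lowest p was that of Psmb9 to Psmb6 in liver, where the log2 ratio was -5.92 ± 0.33 in MR and -5.10 ± 0.36 in CON (mean ± SD, n = 6 each), a difference of -0.82 (exact permutation p = 0.00866, adjusted p = 0.104). The MR libraries ran from -6.32 to -5.47 and the CON libraries from -5.77 to -4.75, so the groups overlapped.

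**Figure D5:**
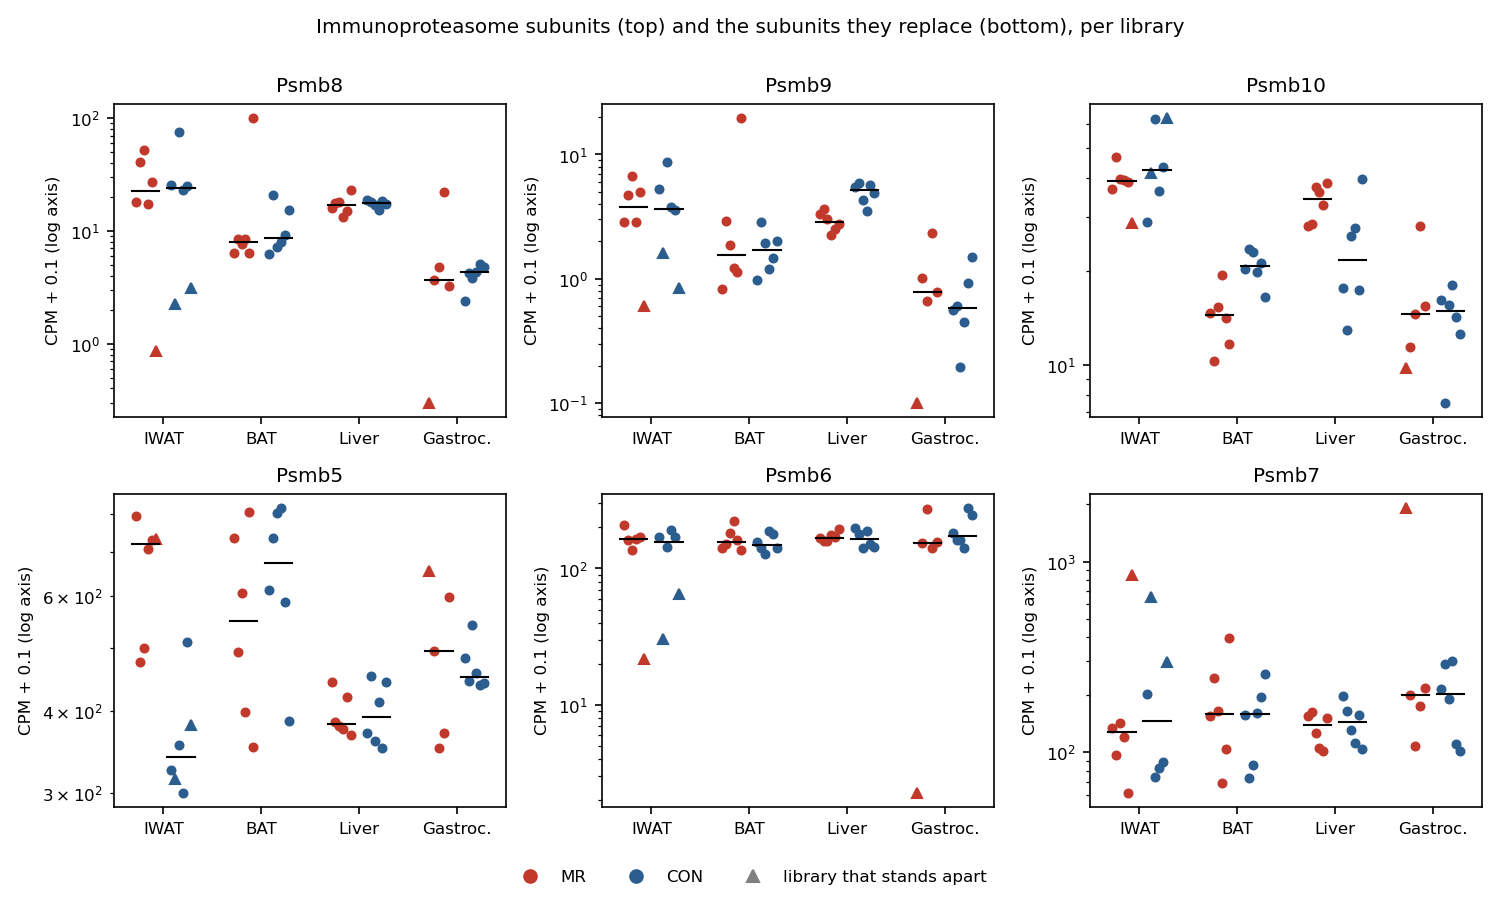
Level per library (CPM + 0.1, log axes) of Psmb8, Psmb9 and Psmb10 (top) and of Psmb5, Psmb6 and Psmb7, which they replace (bottom), MR left of CON in each tissue, with medians as bars and triangles for the libraries that stand apart. Psmb9 lies lower under MR in liver with 1 CON library in the MR range, and single MR libraries of BAT and gastrocnemius lie far above the others for Psmb8 and Psmb9.

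Psmb5, at chr14:54614120-54617995, had the largest fold change among members in IWAT. Its libraries had 476, 720 and 796 CPM under MR (lowest, median and highest), against 300, 340 and 511 CPM under CON. All 6 MR libraries were above the CON mean, and only CON3114 reached into the MR range. The difference was 0.85 ± 0.23 and did not pass in edgeR (adjusted p = 0.184), whereas DESeq2 (adjusted p = 0.00556) and the joint fit of all tissues (adjusted p = 0.00967) called it. Without the 3 libraries that stood apart it was 0.77 (adjusted p = 0.157). Brown adipocyte markers moved with the diet in IWAT: they summed to 1675 to 4530 CPM in MR and 94.6 to 1263 CPM in CON libraries, and their part in Psmb5 was not tested. Psmb5 was at -0.22 ± 0.24 in BAT, -0.01 ± 0.10 in liver and 0.08 ± 0.28 in gastrocnemius. Psmb10 had the lowest fold change in IWAT (-0.26 ± 0.24, adjusted p of 1.00 after rounding). Psmb6 (0.16 ± 0.51), Psmb7 (0.00 ± 0.73), Psmb8 (0.01 ± 0.86) and Psmb9 (-0.06 ± 0.60) had standard errors above their fold changes, and each changed sign under at least 1 alternative.

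In BAT 1 MR library had far higher Psmb8 and Psmb9 than the others. Psmb9 had 0.734, 1.46 and 19.5 CPM under MR (lowest, median and highest library), against 0.870, 1.60 and 2.75 CPM under CON. Psmb8 had 6.24, 7.95 and 99.7 CPM under MR, against 6.09, 8.48 and 20.6 CPM under CON. MR3116 was the highest library for both genes, and the other MR libraries overlapped CON. The fold changes of 1.42 ± 0.74 (Psmb9, adjusted p = 0.427) and 1.04 ± 0.71 (Psmb8, adjusted p = 0.561) became -0.15 and -0.59 without it. In MR3116 lymphocyte markers summed to 3.71 CPM and macrophage markers to 21.5 CPM, within the MR range of BAT. Psmd9 was also high there, at 88.5 CPM, against 15.7 to 27.1 CPM in the other MR libraries of BAT. The cause of the high values in MR3116 was not tested. In contrast Psmb10 was lower in all 6 MR libraries than the CON mean, with 10.2, 14.3 and 19.3 CPM under MR and 16.4, 20.7 and 23.6 CPM under CON (-0.55 ± 0.17, adjusted p = 0.162). Macrophage markers moved the same way in BAT, with 17.3, 23.4 and 26.1 CPM under MR and 24.8, 35.2 and 151 CPM under CON, where CON3103 alone lay within the MR range. Their part in Psmb10 was not tested. Psmb4, a beta subunit without proteolytic activity, had 249, 304 and 433 CPM under MR and 188, 241 and 266 CPM under CON, with all 6 MR libraries above the CON mean (0.44 ± 0.16, adjusted p = 0.240); it was chosen for description after its values were seen. Psmb11 was lowest in BAT, at -0.58 ± 0.34 (adjusted p = 0.485), Psmb6 was at 0.09 ± 0.16 and Psmb7 at 0.29 ± 0.40.

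In gastrocnemius the members with the largest fold changes followed MR3101, a library that stood apart. The alpha gene Psma2 had 916, 145, 67.6, 97.5 and 102 CPM in MR3101, MR3102, MR3104, MR3109 and MR3116, against 68.2, 95.1 and 127 CPM in CON (lowest, median and highest). The difference was 1.46 ± 0.62 (adjusted p = 0.764), and 0.10 without MR3101. Psmb7 had 1903, 198, 108, 175 and 217 CPM in the same MR libraries, against 102, 203 and 301 CPM in CON. It was at 1.37 ± 0.70 (adjusted p = 0.766), and at -0.20 without MR3101. Psmb8 had 0.196, 3.54, 4.65, 22.2 and 3.17 CPM in these libraries, against 2.3, 4.17 and 4.94 CPM in CON. Its high library was MR3109, which also had 528 CPM of lymphocyte markers, where the other gastrocnemius libraries had at most 7.78 CPM, and without it the fold change of 0.77 ± 0.69 became -0.44. Psmb5 (0.08 ± 0.28), Psmb6 (-0.42 ± 0.68), Psmb10 (0.18 ± 0.35) and Psmb11, the lowest (-0.58 ± 0.56), did not pass.

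Psmd14, the deubiquitinase of the lid, was the only member in any tissue whose diet groups did not overlap, against 0.276% of all genes in gastrocnemius, 1.58% in IWAT, 1.94% in BAT and 2.47% in liver, and is named because of it. It had 6.67, 39.8, 39.6, 35.6 and 42.0 CPM in MR3101, MR3102, MR3104, MR3109 and MR3116, against 43.6, 47.1 and 50.5 CPM in CON (lowest, median and highest). All MR libraries lay below all CON libraries, most of all MR3101, and the difference was -0.53 ± 0.39 (adjusted p = 0.896). Psma8, tested in liver alone, had 0.693, 1.43 and 1.99 CPM under MR and 0.0940, 0.757 and 2.05 CPM under CON there, which was the highest fold change of that tissue and did not pass (0.63 ± 0.45, adjusted p = 0.572).

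Whether the diet effect differs between tissues was tested as an interaction in the joint fit. It passed for 0 of 38 members in edgeR, the tool used for it, against 0.524% of all genes, and 2 members had an unadjusted p under 0.05, against 13.9% of all genes. The lowest p were those of Psmb5 (adjusted p = 0.148), whose fold changes in this fit were 0.88 in IWAT, -0.20 in BAT, -0.03 in liver and 0.03 in gastrocnemius, and of Psmb10 (adjusted p = 0.288), at -0.21, -0.53, 0.49 and 0.11. Psmd5 (adjusted p = 0.378) and Psmb9 (adjusted p = 0.417) followed.

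Genes that work with the proteasome gave no call for diet either. Lists of 5 activators and inhibitor, 11 assembly chaperones and further subunits, 13 ubiquitin and shuttle genes, 7 regulators and 15 interferon and antigen presentation genes had no tested gene that passed in edgeR, the tool run on them. At an unadjusted p under 0.05 there were 2 of 44 tested genes in IWAT, 5 of 45 in BAT, 3 of 47 in liver and 1 of 45 in gastrocnemius. These shares of 4.55, 11.1, 6.38 and 2.22% lie below the 8.78, 13.6, 14.5 and 6.32% of all genes. The lowest adjusted p among them was that of Psme2 in liver, with 23.1 ± 4.93 CPM under MR and 15.2 ± 4.54 CPM under CON (mean ± SD, n = 6 each; 0.60 ± 0.19, adjusted p = 0.137). In BAT all 14 tested interferon and antigen presentation genes had negative fold changes, with a median of -0.21, where 50.2% of all genes were positive, and 2 had an unadjusted p under 0.05, against 13.6% of all genes. The macrophage markers given above for BAT were lower under MR too, and CON3106 held over 100 CPM of lymphocyte markers; their part in these signs was not tested. Nfe2l1 was at 0.25 ± 0.43 in IWAT, 0.05 ± 0.18 in BAT, 0.01 ± 0.13 in liver and 0.08 ± 0.41 in gastrocnemius.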

How the data were processed

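Tags were counted with the SOLiD SAGE kit from 7 to 12 ng of total RNA per library, per the labels' protocols, and fragments with a unique match to mouse RefSeq genes were kept. The build was mm10 (GRCm38.p1), and DESeq (version not given) was used, per the submitters' processing notes. Aligner and counter were not given in the sources used here. Whole-number counts per gene symbol and library, without normalization, were deposited by the authors. They also deposited a normalized signal, which on the values is the count divided by 1 factor per library and was used for limma alternatives alone.

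From the counts, each tissue was fitted with edgeR 4.0.16 in R 4.3.3 (TMM factors, filterByExpr with a minimum count of 10, quasi-likelihood F test, Benjamini-Hochberg over all genes, threshold 0.05). The kept genes held 99.6 to 99.8% of the tags. Standard errors were derived from F (fold change over its square root). A joint fit of 47 libraries over the 26583 symbols shared by the tables gave the interaction and the tissue contrasts. Log2 ratios used a prior count of 0.5. Alternatives were DESeq2 1.42.0, limma 3.58.1 on log2(normalized signal + 1) or + 4, other scalings and filters, libraries left out, and the animal as a replicate block. That the same animals gave all tissues comes from the animal numbers in the titles; the mean correlation of deviations between libraries of an animal ran from -0.0771 to 0.0758 over 6 pairs of tissues. The fits were tested on simulated counts. Promoters came from RefSeq (GRCm38).

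The members and lists were chosen with earlier results of these data known. Named were members past the threshold for diet, the highest and lowest fold change per tissue, the 6 catalytic genes with Psma8 and Psmb11, the 3 highest and 3 lowest per tissue contrast, and the 4 lowest interaction p. Limits for a count of 0 use 3 counts. Each mouse is 1 replicate.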

Additional observations from a re-analysis of the deposited data

Results flagged for a closer look

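In 6 of 56 groups of proteasome genes that were checked, 1 library lay farther from the rest of its group than chance gives in about 1 of 20 groups. Psmb7 had 848 CPM in MR3116 of IWAT, where the next MR library had 143 CPM, and 1903 CPM in MR3101 of gastrocnemius, where the next had 217 CPM; both libraries stood apart from their tissue as a whole. Psmb8 had 76.0 CPM in CON3107 of IWAT, against 25.4 CPM in the next CON library, and 22.2 CPM in MR3109 of gastrocnemius, against 4.65 CPM in the next MR library. These 2 libraries held 1960 and 528 CPM of lymphocyte markers, and the part of those markers in Psmb8 was not tested. Psmb8 had 99.7 CPM and Psmb9 had 19.5 CPM in MR3116 of BAT, where the next MR libraries had 8.36 and 2.83 CPM. That library did not stand apart as a whole, and its lymphocyte markers summed to 3.71 CPM. The cause of its Psmb8 and Psmb9 levels was not tested.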

How the results depend on the processing

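The 0 members called for diet in BAT and gastrocnemius, the 0 called for the interaction and the 0 ratios past the threshold were the same under each alternative run. In IWAT 1 member, Psmb5, was called by DESeq2 and 1 by the joint fit. In liver the joint fit called 0, and leaving out single libraries gave 0 to 2. For tissue levels, library totals alone gave 6 calls in IWAT, 14 in liver and 4 in BAT (2 of these 4 also called with TMM). Without the libraries that stood apart there were 23 in IWAT, 14 in BAT, 24 in liver and 26 in gastrocnemius. The shares of all genes beside these counts are given above with each tissue. With the animal as a replicate block BAT had 2 calls, and the block moved no other count by over 1.5 times. The causes were not tested.

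Small fold changes of catalytic genes changed sign. In IWAT Psmb7 was at -0.11 and -0.11 in limma (pseudocounts 1 and 4), -0.025 with a minimum count of 30, -0.014 in the joint fit and -0.042 without the libraries that stood apart. There Psmb9 was at 0.018 and 0.020 in limma and 0.00050 in the joint fit. Without the libraries that stood apart Psmb6 was at -0.020 and Psmb8 at -0.23, and Psmb8 was at -0.38 without lymphocyte-rich libraries, a choice made after seeing the data. In gastrocnemius Psmb8 was at -0.26 and -0.10 in limma. Leaving out 1 library at a time reversed more of them. In IWAT the lowest and highest values were -0.48 and 0.51 for the ratio Psmb10/Psmb7, -0.045 and 0.36 for Psmb6, -1.17 and 0.68 for Psmb7, -0.31 and 0.65 for Psmb8, -1.17 and 0.19 for the ratio Psmb8/Psmb5, -0.31 and 0.29 for Psmb9, -0.38 and 0.073 for the ratio Psmb9/Psmb6. In BAT the lowest and highest values were -0.0051 and 0.16 for Psmb6, -0.083 and 0.50 for Psmb7, -0.59 and 1.33 for Psmb8, -0.33 and 0.70 for the ratio Psmb8/Psmb5, -0.15 and 1.66 for Psmb9, -0.31 and 0.63 for the ratio Psmb9/Psmb6. In liver the lowest and highest values were -0.057 and 0.020 for Psmb5, -0.0074 and 0.083 for Psmb6, -0.12 and 0.029 for Psmb8, -0.14 and 0.023 for the ratio Psmb8/Psmb5. In gastrocnemius the lowest and highest values were -0.13 and 0.32 for Psmb10, -0.83 and 0.41 for the ratio Psmb10/Psmb7, -0.039 and 0.17 for Psmb5, -0.20 and 1.61 for Psmb7, -0.44 and 1.10 for Psmb8, -1.11 and 0.66 for the ratio Psmb8/Psmb5. Psmb3, with 8 to 41 tags per tissue, was in none of the main tests.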
